A study of Mus musculus with 18 samples.

Results

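The genes described here are 32 mouse genes of the p53 pathway, taken as a list of names and matched by gene symbol to the 55414 genes of the count table. All 32 were found once each. They comprise *Trp53*, which encodes p53, 3 regulators of p53 and 28 genes best known as transcriptional targets of p53. The rule for the list was the known function of the genes. Their RNA was measured in N2A cells, a mouse neuroblastoma line, by sequencing of total RNA depleted of rRNA, 72 h after siRNA transfection. The cells received 1 of 6 siRNAs: Scramble siRNA A or B as controls, *Fmr1* siRNA A or B, which target the mRNA of the RNA-binding protein FMRP, or *Zfp598* siRNA A or B, which target the mRNA of a ubiquitin ligase that acts on collided ribosomes. Each siRNA was represented by 3 libraries, named A1 to A3 and B1 to B3, so that each condition (Scramble KD, *Fmr1* KD and *Zfp598* KD) had 6 libraries and the whole set had 18. The labels name no treatment other than the siRNA. All groups shared the cell line and the transfection, and because libraries of an siRNA are repeat transfections of that line, the p-values measure only the spread between these libraries. In bulk RNA, fewer cells of a kind and less RNA per cell cannot be told apart.

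p53 is a transcription factor that MDM2, a ubiquitin ligase, keeps at a low level and that MDM4, a relative of MDM2 without strong ligase activity of its own, holds inactive. When DNA is damaged or ribosome assembly fails, this restraint is lifted, and p53 binds paired decamers in the DNA of its target genes, whose products stop the cell cycle, repair DNA, alter metabolism or start cell death. *Mdm2* is itself a target, which closes a feedback loop. Neuroblastomas usually keep an intact p53 gene at diagnosis.

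To show what p53 binds, the GRCm39 sequence within 3000 bases of each gene's annotated 5′ end was searched for the consensus p53 response element, 2 decamers with no spacer, allowing 1 mismatch in 20 bases. The element reads the same on both strands, so both were covered. Such a match was present for 5 of 31 genes searched, against 1.77% of 21614 protein-coding genes. Only the *Zmat3* match had no mismatch, as for 0.116% of all genes searched. The 6 matches are printed 5′ to 3′ on the strand of their gene, with the central 4 bases of each decamer in capitals. That of *Cdkn1a* lies at chr17:29309902-29309921 on the plus strand, starting 34 bases upstream of the annotated start, and that of *Mdm2* at chr10:117547575-117547594 on the minus strand, starting 864 bases upstream. *Ccng1* has one at chr11:40646289-40646308 on the minus strand, starting 160 bases upstream, and another at chr11:40645763-40645782 in an intron. The *Eda2r* match at chrX:96420297-96420316 and the *Zmat3* match at chr3:32418480-32418499, both on the minus strand, lie in noncoding exon sequence. A match is a description of the letters and not of binding.
Cdkn1a: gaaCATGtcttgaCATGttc
Mdm2: gggCAATtccgggCAAGtcc
Ccng1, upstream: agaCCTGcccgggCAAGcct
Ccng1, intron: acgCAAGcccgggCTAGtct
Eda2r: gaaTATGcccggaCTTGtcc
Zmat3: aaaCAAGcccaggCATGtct

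Total counts per library ranged from 7674724 to 15414590. The knockdowns were visible in the targeted mRNAs: the log2 change (± SE) of *Fmr1* was -1.72 ± 0.11 with its siRNA A and -1.17 ± 0.11 with its siRNA B, and that of *Zfp598* was -1.56 ± 0.11 and -1.51 ± 0.11 with its own siRNAs A and B (adjusted p at most 1.91e-07, edgeR quasi-likelihood test). Among genes that mark neuroblastoma cells, *Hand2* and *Tubb3* had at least 2444 counts in every library, while *Nefl* and *Nefm* had at most 6 counts in any. Libraries that stood apart were *Zfp598* A2 and A3, in which a single feature with no entry in the annotation took 15.2% and 25.8% of the counts against 5.00% to 11.1% in the other 16 libraries, and *Fmr1* B1, which was above every other library for 7 of 9 stem cell markers, *Lin28a* and *Dppa4* excepted. Calls of the p53 genes that were lost when any of them was left out on its own are named or counted with the gene. Leaving out both *Zfp598* A2 and A3 left *Zfp598* siRNA A with A1 alone. For that fit by siRNA only sizes of change are given, and they do not show whether a call depends on these libraries.

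Of the 32 genes, 25 passed the filter on low counts and were tested, each among 17901 genes. The other 7 had at most 21 counts in any library: *Plk2*, *Pmaip1*, *Perp*, *Fas*, *Tnfrsf10b*, *Eda2r* and *Dram1*. A gene is called here when its Benjamini-Hochberg adjusted p over all 17901 genes was under 0.05 in edgeR's quasi-likelihood test, and log2 changes are given ± SE. Levels are in CPM, that is counts scaled to a common library size, here with TMM factors. Per kilobase of annotated exon, levels over the 18 libraries were highest for *Bax* at 23.5, *Phlda3* at 19.04 and *Mdm2* at 16.5 CPM, stood at 10.3 for *Cdkn1a* and 7.22 for *Trp53*, and were lowest among tested genes for *Ddb2* at 0.953. The 7 untested genes were at 0.137 CPM per kilobase or less. Exons of all annotated transcripts were counted in these lengths, so the order of close neighbours is not firm.

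Across the 6 siRNAs, 21 of the 25 tested p53 genes varied (adjusted p under 0.05, F test over 6 groups in edgeR), beside 63.3% of all genes tested. *Mdm4*, *Rrm2b* and *Plk3* had the smallest adjusted p (1.14e-08, 6.04e-08 and 7.24e-08). The 4 that did not pass were *Zmat3*, *Ppm1d*, *Tigar* and *Ercc5*. *Ercc5*, a repair endonuclease, had the narrowest spread of log2 differences of these genes, from -0.07 to 0.07 over the 7 comparisons between siRNAs.

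With both siRNAs of a target pooled, few p53 genes moved, in mixed directions and all by less than 2-fold, the size passed by 1.0% of all genes for *Fmr1* and 0.464% for *Zfp598*. In *Fmr1* KD against Scramble KD, *Trp53* and *Apaf1* were higher and *Mdm4*, *Rrm2b* and *Bbc3* lower. That made 5 of 25 called, beside 6.54% of all genes tested (2.73% higher and 3.8% lower). In *Zfp598* KD only *Rrm2b* was called, lower, which was 1 of 25 beside 1.96% of all genes (0.916% higher and 1.04% lower). The median log2 change of the 25 genes was 0.00 after loss of *Fmr1* and -0.02 after loss of *Zfp598*, and the medians over all genes were 0.00 and 0.01. *Cdkn1a*, the classic readout of p53 activity, was not called in either, at -0.33 ± 0.11 for *Fmr1* (adjusted p = 0.0778) and 0.24 ± 0.11 for *Zfp598* (adjusted p = 0.257).

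Some levels separated the conditions library by library. All 6 *Fmr1* KD libraries lay above all 6 Scramble KD libraries for *Aen* and *Apaf1*, against 2.46% of all genes, and below them for *Mdm4* and *Rrm2b*, against 3.51%. The 6 *Zfp598* KD libraries lay above the Scramble KD libraries for *Trp53inp1*, against 0.765%, and below them for none, against 1.11%.

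When each KD siRNA was set against the 6 Scramble libraries in a model with 1 group per siRNA, more p53 genes were called and the directions were again mixed. *Fmr1* siRNA A gave 7 higher and 7 lower of 25, when 13.7% of all genes were higher, 15.5% lower and 29.3% called in all. *Fmr1* siRNA B gave 3 higher and 7 lower (all genes 10.1%, 10.3% and 20.4%). *Zfp598* siRNA A gave 5 higher and 2 lower (10.9%, 7.23% and 18.1%), and *Zfp598* siRNA B gave 4 higher and 6 lower (13.8%, 16.1% and 29.9%). The 4 comparisons share their Scramble libraries. Median log2 changes of the 25 genes were 0.04, -0.13, 0.03 and -0.05 in that order, with all-gene medians between 0.00 and 0.01. *Rrm2b* was the gene past 2-fold with *Fmr1* siRNA B (2.44% of all genes) and with *Zfp598* siRNA B (4.45%), and no p53 gene passed 2-fold with *Fmr1* siRNA A (3.45%) or *Zfp598* siRNA A (1.63%).

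The siRNAs of a single condition also differed from one another. Scramble siRNA B against Scramble siRNA A, a comparison of controls, gave 2 higher and 4 lower of the 25 genes (all genes 10.4%, 12.2% and 22.7% in all). *Fmr1* siRNA B against A gave 2 higher and 9 lower (13.3%, 11.1% and 24.3%), with a median of -0.27 against 0.00 for all genes. *Zfp598* siRNA B against A gave 3 higher and 8 lower (15.6%, 19.7% and 35.3%), with a median of -0.13 against -0.01. *Plk3* between the *Fmr1* siRNAs, where 3.99% of all genes passed 2-fold, was the sole such difference among the p53 genes. Between the Scramble siRNAs (3.61%) and the *Zfp598* siRNAs (7.57%) none was as large. The genes called between the Scramble siRNAs were *Mdm4* and *Rrm2b*, higher with B, and *Bax*, *Plk3*, *Sesn1* and *Zmat3*, lower with B. The other 19 were not called, at log2 differences from -0.43 for *Phlda3* to 0.48 for *Ddb2*. Among these the difference was -0.37 for *Btg2*, -0.33 for *Fdxr*, 0.27 for *Trp53inp1* and 0.21 for *Polk*, and between -0.20 and 0.15 for the remaining genes. Several of these values are close in size to the changes with KD siRNAs below.

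**Figure D1:**
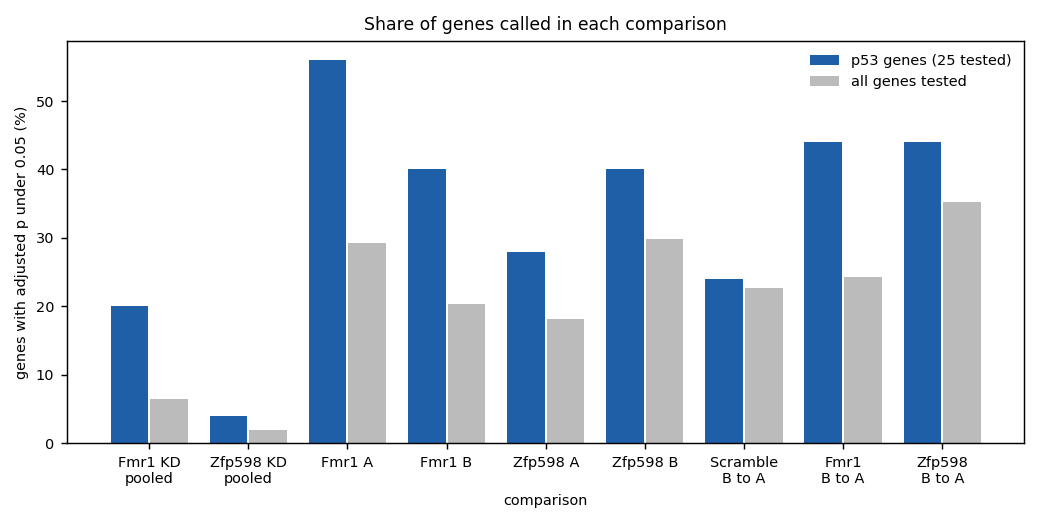
Share of genes with an adjusted p under 0.05 in each of 9 comparisons, for the 25 tested p53 genes (blue) and for all 17901 genes tested (grey), in percent. The p53 genes range from 4% in pooled *Zfp598* KD to 56.0% with *Fmr1* siRNA A, and between the Scramble siRNAs 24.0% are called beside 22.7% of all genes.

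*Trp53* itself was higher after *Fmr1* KD. It stood at 44.2, 46.7 and 45.2 CPM with Scramble siRNA A and at 43.5, 43.5 and 55.9 with Scramble siRNA B. In the *Fmr1* KD libraries it was 82.4, 78.7 and 79.3 CPM with siRNA A and 54.7, 54.4 and 61.0 with siRNA B. All 3 siRNA A libraries were above every Scramble library, whereas with siRNA B *Fmr1* B1 and B2 were under Scramble B3. The pooled log2 change was 0.56 ± 0.12 (adjusted p = 0.00852), made up of 0.78 ± 0.08 for siRNA A (adjusted p = 4.36e-07) and 0.29 ± 0.08 for siRNA B (adjusted p = 0.0169), and siRNA B was lower than A by 0.50 ± 0.09 (adjusted p = 0.000514). Against the Scramble siRNA B libraries alone the siRNA B value was 0.25 with an adjusted p of 0.0645, and without *Fmr1* B3 it was 0.23 with an adjusted p of 0.107. The *Zfp598* KD libraries were at 38.9 to 52.7 CPM and neither siRNA was called, at -0.21 ± 0.09 for A and 0.09 ± 0.08 for B. Between the *Zfp598* siRNAs it was called (0.31, adjusted p = 0.0208), a call lost without *Zfp598* B1 or B2. Without both *Zfp598* A2 and A3 the difference was 0.37. *Trp53* overlaps *Wrap53* on the opposite strand, and the strand setting of the counting was not stated. *Wrap53* was at 6.96 to 18.5 CPM over all libraries and was not called in *Fmr1* KD (-0.06 ± 0.17, adjusted p = 0.871).

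*Mdm4*, the inhibitory partner of p53, fell with both *Fmr1* siRNAs. It was at 143, 146 and 133 CPM with *Fmr1* siRNA A and 141, 145 and 136 with siRNA B. Scramble siRNA A gave 191, 202 and 194 CPM and Scramble siRNA B 293, 279 and 275. The *Fmr1* KD libraries thus lay close together and below both Scramble sets, which themselves did not overlap. The log2 change was -0.74 ± 0.07 for siRNA A (adjusted p = 1.43e-07) and -0.74 ± 0.07 for siRNA B (adjusted p = 2.99e-07), while Scramble siRNA B exceeded Scramble siRNA A by 0.53 ± 0.08 (adjusted p = 5.35e-05). Against Scramble siRNA A alone the falls were -0.48 for each *Fmr1* siRNA, and against Scramble siRNA B alone -1.01 for each, all called. In *Zfp598* KD *Mdm4* ranged from 196 to 241 CPM, inside the Scramble range, and was not called with either siRNA against both Scramble siRNAs. Against Scramble siRNA B alone it was lower with *Zfp598* siRNA A (-0.45, adjusted p = 0.000437) and siRNA B (-0.31, adjusted p = 0.00524), and against Scramble siRNA A alone it was higher with *Zfp598* siRNA B (0.22, adjusted p = 0.0404).

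*Mdm2*, the ubiquitin ligase and feedback target, was called in opposite directions with the *Fmr1* siRNAs. Its levels were 150, 138 and 147 CPM with siRNA A and 107, 100 and 117 with siRNA B. Scramble siRNA A gave 137, 126 and 136 CPM and Scramble siRNA B 118, 129 and 109. The log2 changes were 0.21 ± 0.07 (adjusted p = 0.033) and -0.22 ± 0.07 (adjusted p = 0.044), and the difference between the *Fmr1* siRNAs was -0.43 ± 0.08 (adjusted p = 0.0008). Each depended on the Scramble siRNA used, whose letters do not pair with those of the KD siRNAs. *Fmr1* siRNA A was at 0.13 against Scramble A (adjusted p = 0.309) and 0.29 against Scramble B (adjusted p = 0.0108). *Fmr1* siRNA B was at -0.30 against Scramble A (adjusted p = 0.0168) and -0.13 against Scramble B (adjusted p = 0.293). The siRNA A call was lost in 5 of the 18 fits that left out 1 library and the siRNA B call in 11, among them that without *Fmr1* B1 (-0.20, adjusted p = 0.156), and both were lost without the filter on low counts. The *Zfp598* KD libraries were at 132, 147 and 132 CPM with siRNA A and 117, 117 and 130 with siRNA B, and neither set was called. *Ppm1d*, which encodes the phosphatase that switches off the p53 response, was at 18.6 to 35.7 CPM over *Zfp598* KD and 21.6 to 31.2 CPM over the other conditions, and was called only between the *Zfp598* siRNAs (-0.56 ± 0.15, adjusted p = 0.00722). That call was lost without *Zfp598* A2 (-0.44, adjusted p = 0.0583) or *Zfp598* B1 (-0.47, adjusted p = 0.0502). Without both *Zfp598* A2 and A3 the difference was -0.22.

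**Figure D2:**
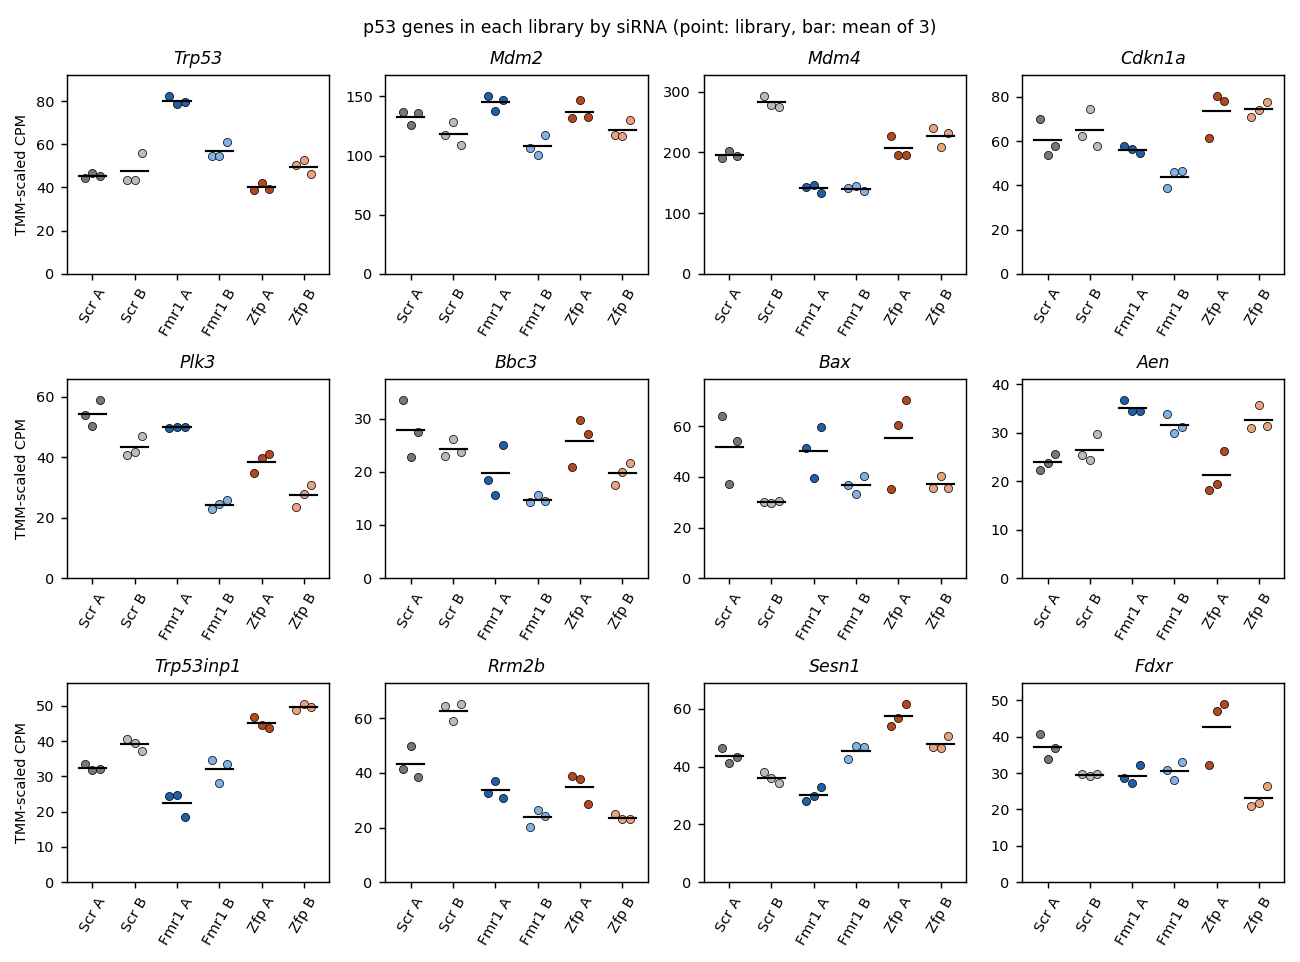
Level of 12 p53 genes in each of the 18 libraries, in TMM-scaled CPM on axes that start at 0, by siRNA (Scr, Scramble; Zfp, *Zfp598*). Points are libraries and bars the mean of 3. *Mdm4* lies at 133 to 146 CPM in all *Fmr1* KD libraries, and *Rrm2b* lies at 23.0 to 24.8 CPM with *Zfp598* siRNA B against 58.8 to 65.1 with Scramble siRNA B.

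*Cdkn1a*, a growth arrest gene with a match to the consensus printed above, encodes the cyclin-dependent kinase inhibitor p21. Against Scramble it was called only with *Fmr1* siRNA B, and downward. Its levels there were 38.7, 45.9 and 46.5 CPM, below every other library of the set. *Fmr1* siRNA A gave 57.8, 56.2 and 54.4 CPM, Scramble siRNA A 69.9, 53.8 and 57.6, and Scramble siRNA B 62.3, 74.6 and 57.9. The log2 change with *Fmr1* siRNA B was -0.52 ± 0.11 (adjusted p = 0.00135) and held against each Scramble siRNA alone (-0.47 and -0.57). With *Fmr1* siRNA A it was -0.16 ± 0.10 (adjusted p = 0.28). *Zfp598* siRNAs A and B gave 61.5, 80.4 and 78.3 CPM and 71.0, 74.2 and 77.8 CPM, with changes of 0.22 ± 0.10 and 0.25 ± 0.10 that did not pass (adjusted p = 0.135 and 0.0701). *Zfp598* A1 was inside the Scramble range, and A2 and A3 were above it. The siRNA A value was 0.15 to 0.34 with 1 library left out. Over all other fits, that without both *Zfp598* A2 and A3 included, it ranged from -0.03 to 0.34.

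*Plk3*, a stress-activated polo-like kinase, was lower with both siRNAs B. It stood at 22.7, 24.4 and 25.7 CPM with *Fmr1* siRNA B but at 49.7, 49.9 and 49.8 with *Fmr1* siRNA A. The *Zfp598* libraries were at 34.6, 39.6 and 41.1 CPM with siRNA A and 23.4, 27.9 and 30.9 with siRNA B. Scramble siRNA A gave 53.9, 50.1 and 58.8 CPM and Scramble siRNA B 40.7, 41.7 and 47.0, so the controls also differed (-0.33 ± 0.10, adjusted p = 0.0247). Changes against Scramble were -0.997 ± 0.09 with *Fmr1* siRNA B (adjusted p = 3.51e-07), -0.82 ± 0.09 with *Zfp598* siRNA B (adjusted p = 2.21e-06) and -0.34 ± 0.09 with *Zfp598* siRNA A (adjusted p = 0.0168), against 0.04 ± 0.09 with *Fmr1* siRNA A (adjusted p = 0.777). The difference between *Fmr1* siRNAs B and A was -1.04 ± 0.11 (adjusted p = 5.31e-07). Against Scramble siRNA B alone, the values for the *Fmr1* and *Zfp598* siRNAs B were -0.83 and -0.66 and still called, and that for *Zfp598* siRNA A was -0.18 with an adjusted p of 0.231. Without *Zfp598* A2 the last was -0.37 with an adjusted p of 0.0529 against both Scramble siRNAs. It was -0.49 without both *Zfp598* A2 and A3. The difference between the *Zfp598* siRNAs was -0.48 (adjusted p = 0.00194), and -0.32 without these libraries. The difference between the Scramble siRNAs was lost in 4 of 18 fits without 1 library.

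*Ccng1*, which encodes cyclin G1, ranged from 35.8 to 43.4 CPM over the Scramble libraries and from 52.2 to 57.0 CPM with *Zfp598* siRNA B, with no overlap. Its change there was 0.50 ± 0.09 (adjusted p = 0.000217). With *Zfp598* siRNA A it was 0.30 ± 0.09 (adjusted p = 0.0274) and with *Fmr1* siRNA A 0.24 ± 0.09 (adjusted p = 0.0493), while *Fmr1* siRNA B gave -0.24 ± 0.09 (adjusted p = 0.0663). The *Fmr1* siRNA A call was lost in 13 of the 18 fits that left out 1 library, and the *Zfp598* siRNA A call in 6. Without both *Zfp598* A2 and A3 the change with *Zfp598* siRNA A was 0.36. *Ccng1* overlaps *Nudcd2* on the opposite strand, which was at 44.3 to 67.6 CPM and was not called with any of these siRNAs.

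*Gadd45a*, a damage-induced regulator of stress kinases and repair, fell with *Fmr1* siRNA B to 7.55 to 8.24 CPM against 9.41 to 12.9 CPM over the Scramble libraries (-0.47 ± 0.13, adjusted p = 0.0125), a call lost without *Fmr1* B1 or B2. With *Zfp598* siRNA B it was -0.36 ± 0.13 (adjusted p = 0.0394), a call lost in 11 of 18 fits without 1 library and in DESeq2. *Btg2*, an antiproliferative cofactor, passed against both Scramble siRNAs with no KD siRNA. It was higher with *Fmr1* siRNA A against Scramble siRNA B alone (0.54, adjusted p = 0.0303). With *Zfp598* siRNA B it was lower against Scramble siRNA A alone (-0.60, adjusted p = 0.0224). *Btg2* was also lower with siRNA B than with siRNA A of *Fmr1* (-0.53 ± 0.19, adjusted p = 0.043) and of *Zfp598* (-0.71 ± 0.19, adjusted p = 0.00778). Between the *Fmr1* siRNAs all 5 tested growth arrest genes were lower with B, by 0.36 to 1.04 on the log2 scale. Of these, the *Btg2* call was lost in 10 of 18 fits without 1 library and the *Cdkn1a* call in 5, both including the fit without *Fmr1* B1 (adjusted p = 0.0962 and 0.158). *Trp53* was lower in the same comparison. Of all genes tested, 11.1% were called lower in this comparison.

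Cell cycle genes, which p53 represses indirectly through p21, also differed between the siRNAs. Of 22 such genes, 21 were higher with Scramble siRNA B than with Scramble siRNA A, with a median log2 difference of 0.81, beside 10.4% of all genes. With *Fmr1* siRNA A 2 were higher and 17 lower than Scramble (median -0.61), when 13.7% and 15.5% of all genes were. With *Fmr1* siRNA B 11 were higher and 1 lower (median 0.31, all genes 10.1% and 10.3%). With *Zfp598* siRNA A edgeR called 2 lower and none higher (median 0.05, all genes 7.23% and 10.9%), with 5 higher at an unadjusted p under 0.05 and 1 called higher by DESeq2, and with *Zfp598* siRNA B 7 were higher and 3 lower (median 0.19, all genes 13.8% and 16.1%). Between *Fmr1* siRNAs B and A 20 were higher (median 0.83), beside 13.3% of all genes. In these comparisons *Cdkn1a* was at 0.10 ± 0.12 between Scramble siRNAs B and A (adjusted p = 0.569), at -0.36 between *Fmr1* siRNAs B and A (adjusted p = 0.0311), lower with *Fmr1* siRNA B and not called with the other 3 KD siRNAs. The part of cell cycle genes in the results on p53 genes was not tested.

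Among the genes of mitochondrial cell death, *Bbc3*, which encodes the BH3-only protein PUMA, was lower with *Fmr1* siRNA B. It was at 14.2, 15.5 and 14.5 CPM there and at 18.5, 15.6 and 24.9 CPM with *Fmr1* siRNA A. The Scramble libraries were at 33.5, 22.8 and 27.4 CPM with siRNA A and 22.9, 26.2 and 23.7 with siRNA B. Every *Fmr1* siRNA B library was below every Scramble library, and *Fmr1* A3 was inside their range. Changes were -0.81 ± 0.15 for siRNA B (adjusted p = 0.000482) and -0.40 ± 0.14 for siRNA A (adjusted p = 0.0394), the latter lost in 7 of 18 fits without 1 library (-0.60 to -0.25). The pooled call, -0.60 ± 0.15 (adjusted p = 0.0232), was lost without Scramble A1, *Fmr1* A2, *Fmr1* B1 or *Fmr1* B3. The *Zfp598* libraries were at 20.8, 29.8 and 27.0 CPM with siRNA A and 17.5, 19.9 and 21.6 with siRNA B. *Zfp598* siRNA B was called at -0.40 ± 0.14 (adjusted p = 0.0406), a call lost in 12 such fits, and *Zfp598* siRNA A was at -0.02 ± 0.14.

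*Apaf1*, the scaffold of the apoptosome, rose with both *Fmr1* siRNAs by a small and regular amount. The *Fmr1* KD libraries were at 79.0 to 95.6 CPM and the Scramble libraries at 68.7 to 75.2. The change was 0.32 ± 0.07 with siRNA A (adjusted p = 0.00122) and 0.23 ± 0.07 with siRNA B (adjusted p = 0.0201), or 0.28 ± 0.07 pooled (adjusted p = 0.0267). The Scramble siRNAs differed by 0.04 ± 0.08. The pooled call was lost in 3 of the 18 fits without 1 library (without Scramble B2, *Fmr1* A1 or *Fmr1* A2), within a range of 0.25 to 0.31, and the siRNA B call was lost without *Fmr1* B1 or B3. The *Zfp598* siRNAs gave 0.06 ± 0.07 and 0.13 ± 0.07, not called.

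*Aen*, a nuclease that takes part in p53-dependent cell death, was at 36.8, 34.4 and 34.4 CPM with *Fmr1* siRNA A and 33.9, 30.03 and 31.2 with siRNA B. The Scramble libraries were at 22.3, 23.7 and 25.6 CPM with siRNA A and 25.3, 24.4 and 29.7 with siRNA B, all lower. The changes were 0.48 ± 0.10 (adjusted p = 0.000944) and 0.33 ± 0.10 (adjusted p = 0.0228). The *Zfp598* siRNAs parted on this gene, with 18.3, 19.5 and 26.3 CPM for siRNA A and 31.1, 35.8 and 31.3 for siRNA B. Their difference was 0.64 ± 0.12 (adjusted p = 0.000535), and siRNA B alone was called against Scramble (0.38 ± 0.10, adjusted p = 0.00744). The *Zfp598* siRNA B call was lost without *Zfp598* B2 (0.32, adjusted p = 0.0592), and the *Fmr1* siRNA B call without Scramble B2, *Fmr1* B1 or *Fmr1* B3. Both calls were also lost against Scramble siRNA B alone, at 0.30 for *Zfp598* siRNA B (adjusted p = 0.0613) and 0.26 for *Fmr1* siRNA B (adjusted p = 0.121). In the pooled fit *Aen* in *Fmr1* KD was 0.41 ± 0.14 with an adjusted p of 0.0804.

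*Trp53inp1*, a stress protein that promotes p53-dependent cell death and autophagy, fell with *Fmr1* siRNA A and rose with the *Zfp598* siRNAs. It was at 24.4, 24.8 and 18.4 CPM with *Fmr1* siRNA A and 34.5, 28.2 and 33.6 with siRNA B. *Zfp598* siRNA A gave 46.9, 44.6 and 43.8 CPM and siRNA B 48.8, 50.4 and 49.7. The Scramble libraries were at 33.5, 31.9 and 32.1 CPM with siRNA A and 40.7, 39.3 and 37.3 with siRNA B, between the *Fmr1* siRNA A and the *Zfp598* KD libraries and without overlap with either. Changes were -0.66 ± 0.09 for *Fmr1* siRNA A (adjusted p = 2.09e-05), 0.34 ± 0.09 for *Zfp598* siRNA A (adjusted p = 0.0135) and 0.48 ± 0.09 for *Zfp598* siRNA B (adjusted p = 0.00034). *Fmr1* siRNA B was at -0.15 ± 0.09 (adjusted p = 0.273). Against Scramble siRNA B alone the *Zfp598* siRNA A value was 0.21 with an adjusted p of 0.146. The call was also lost without *Zfp598* A2 (0.35, adjusted p = 0.0509). In the pooled fit the *Zfp598* KD change was 0.41 ± 0.12 with an adjusted p of 0.089.

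*Ei24*, an endoplasmic reticulum protein induced by p53, was lower with *Fmr1* siRNA A (-0.30 ± 0.10, adjusted p = 0.0332), a call lost in 5 of 18 fits without 1 library. It was otherwise called only between the *Zfp598* siRNAs (0.35, adjusted p = 0.029), a call lost without *Zfp598* A2, B1 or B2. That difference was 0.23 without both *Zfp598* A2 and A3. *Bax*, the pore-forming protein of the mitochondrial outer membrane, passed against both Scramble siRNAs with no KD siRNA. Against Scramble siRNA B alone it was higher with *Fmr1* siRNA A (0.75, adjusted p = 0.0073) and *Zfp598* siRNA A (0.86, adjusted p = 0.00459). It was lower with Scramble siRNA B than with Scramble siRNA A (-0.78 ± 0.20, adjusted p = 0.00798), but not without Scramble A1 (-0.61, adjusted p = 0.0605). *Phlda3*, an inhibitor of Akt, was called with *Zfp598* siRNA A at 0.70 ± 0.19 (adjusted p = 0.0141).

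These values of *Bax* and *Phlda3*, and those of *Fdxr*, which encodes the mitochondrial ferredoxin reductase, moved from library to library with the share of counts taken by the feature without annotation. *Phlda3* was chosen for this description after its values were seen. The share was 11.1%, 5.00% and 8.83% in Scramble A1 to A3 and 5.67%, 15.2% and 25.8% in *Zfp598* A1 to A3. In the same libraries *Phlda3* was at 68.5, 34.0 and 55.3 CPM and at 45.6, 78.3 and 99.1 CPM. *Bax* was at 64.0, 37.0 and 54.4 CPM and at 35.3, 60.5 and 70.4 CPM. *Fdxr* was at 40.7, 33.9 and 37.0 CPM and at 32.2, 47.1 and 48.9 CPM. For each gene the order of the 3 libraries of an siRNA was that of the share, in both sets. The same order was seen for *Sesn1*, described below. It was at 46.4, 41.3 and 43.4 CPM in Scramble A1 to A3 and 54.2, 56.9 and 61.6 CPM in *Zfp598* A1 to A3.

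With the other siRNAs, for which the share was 5.40% to 7.93%, *Phlda3* lay at 33.8 to 55.3 CPM. *Bax* was at 51.6, 39.8 and 59.9 CPM with *Fmr1* siRNA A and 36.8, 33.2 and 40.2 with siRNA B, at 30.1, 29.6 and 30.4 with Scramble siRNA B and at 35.8, 40.3 and 35.5 with *Zfp598* siRNA B. *Fdxr* was at 28.5, 27.2 and 32.2 CPM with *Fmr1* siRNA A, 30.8, 28.1 and 32.96 with *Fmr1* siRNA B and 29.6, 29.2 and 29.7 with Scramble siRNA B. It was lowest with *Zfp598* siRNA B, at 20.8, 21.9 and 26.4 CPM, under every other library.

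Without *Zfp598* A2 and A3, the *Phlda3* change with *Zfp598* siRNA A was 0.01. Its difference between the *Zfp598* siRNAs was -0.25, next to -0.96 with all libraries (adjusted p = 0.00225). The *Fdxr* change with *Zfp598* siRNA A, 0.35 ± 0.12 with all libraries (adjusted p = 0.0385), was -0.05. The *Bax* difference between the *Zfp598* siRNAs, -0.55 ± 0.20 with all libraries (adjusted p = 0.0404), was then 0.09. With 1 library left out at a time, the *Fdxr* call with *Zfp598* siRNA A was lost in 10 of 18 fits and this *Bax* call in 12. The *Phlda3* call with *Zfp598* siRNA A was lost without *Zfp598* A2 (0.65, adjusted p = 0.0762) or A3 (0.45, adjusted p = 0.16). The fall of *Fdxr* with *Zfp598* siRNA B (-0.52 ± 0.12, adjusted p = 0.00233) kept its call in all 18 fits without 1 library, at -0.63 to -0.45, and was at -0.36 with an adjusted p of 0.0563 against Scramble siRNA B alone.

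**Figure D3:**
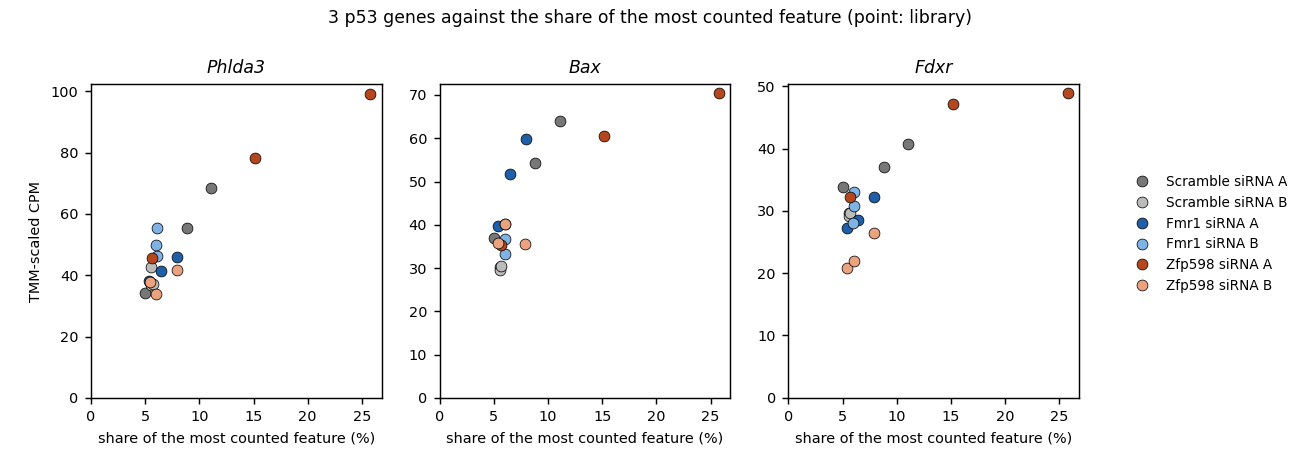
Level of *Phlda3*, *Bax* and *Fdxr* (TMM-scaled CPM, vertical axes from 0) against the share of each library's counts taken by the most counted feature (percent, horizontal axes). Points are the 18 libraries, coloured by siRNA. *Zfp598* A3, at a share of 25.8%, has the highest level of all 3 genes, and Scramble A1, at 11.1%, the highest of the Scramble libraries.

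Of the genes of DNA repair and nucleotide supply, *Rrm2b* changed most. It encodes the p53-inducible small subunit of ribonucleotide reductase, which supplies deoxynucleotides outside S phase. The Scramble libraries were at 41.3, 49.7 and 38.5 CPM with siRNA A and 64.3, 58.8 and 65.1 with siRNA B. *Fmr1* siRNA A gave 32.6, 37.2 and 30.9 CPM and siRNA B 20.3, 26.5 and 24.3. All 6 were below the lowest Scramble library. *Zfp598* siRNA A gave 38.8, 37.8 and 28.5 CPM and siRNA B 24.8, 23.0 and 23.1, and of these only *Zfp598* A1 reached into the Scramble range.

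The pooled changes of *Rrm2b* were -0.89 ± 0.17 in *Fmr1* KD (adjusted p = 0.00384), which is 1.85-fold lower, and -0.85 ± 0.17 in *Zfp598* KD (adjusted p = 0.0167), which is 1.81-fold lower. By siRNA they were -0.63 ± 0.11 for *Fmr1* siRNA A, -1.13 ± 0.11 for *Fmr1* siRNA B, -0.56 ± 0.11 for *Zfp598* siRNA A and -1.14 ± 0.11 for *Zfp598* siRNA B (adjusted p = 0.000154, 5.52e-07, 0.00238 and 4.37e-07). In each target siRNA B was lower than siRNA A, by 0.50 ± 0.13 for *Fmr1* (adjusted p = 0.00547) and 0.58 ± 0.13 for *Zfp598* (adjusted p = 0.00176), whereas Scramble siRNA B was higher than Scramble siRNA A by 0.54 ± 0.12 (adjusted p = 0.00288). Measured against the lower Scramble siRNA, A, the 4 values were -0.36, -0.87, -0.29 and -0.87, and that of *Zfp598* siRNA A was no longer called (adjusted p = 0.144). Without both *Zfp598* A2 and A3 the *Zfp598* siRNA A value against both Scramble siRNAs was -0.43. Without *Zfp598* B3 the pooled *Zfp598* KD value was -0.79 with an adjusted p of 0.051. *Rrm2b* overlaps a processed pseudogene and, on the opposite strand, the noncoding RNA *Gm49085*, so its counts are uncertain to that extent. *Gm49085* was at 1.81 to 5.58 CPM, and with *Zfp598* siRNA B it moved the other way (0.67 ± 0.22, adjusted p = 0.0279).

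The damage sensors of nucleotide excision repair, *Xpc* and *Ddb2*, were called higher with *Fmr1* siRNA A and with no other KD siRNA. *Xpc* was at 40.0 to 43.3 CPM against 29.8 to 39.3 CPM over the Scramble libraries (0.33 ± 0.09, adjusted p = 0.00723), and *Fmr1* siRNA B was lower than A by 0.47 ± 0.10 (adjusted p = 0.00232). *Ddb2*, at 2.12 to 6.25 CPM the lowest of the tested genes, was at 0.61 ± 0.19 (adjusted p = 0.0206) and was not called against Scramble siRNA B alone (0.37, adjusted p = 0.228) or without *Fmr1* A1 or A2. *Polk*, a translesion DNA polymerase, was lower with *Fmr1* siRNA A (-0.27 ± 0.09, adjusted p = 0.0329) and *Zfp598* siRNA B (-0.38 ± 0.10, adjusted p = 0.00481). The first of these was lost in 5 of 18 fits without 1 library. Neither was called against Scramble siRNA A alone, at -0.17 (adjusted p = 0.284) and -0.28 (adjusted p = 0.0598). *Polk* and *Ddb2* each overlap another protein-coding gene on the opposite strand.

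In the group of metabolism and RNA genes, *Sesn1*, which encodes a sestrin that restrains mTORC1, rose with both *Zfp598* siRNAs and fell with *Fmr1* siRNA A. It was at 54.2, 56.9 and 61.6 CPM with *Zfp598* siRNA A and 46.8, 46.4 and 50.7 with siRNA B. *Fmr1* siRNA A gave 28.1, 29.8 and 32.9 CPM and *Fmr1* siRNA B 42.5, 47.2 and 46.8. The Scramble libraries were at 46.4, 41.3 and 43.4 CPM with siRNA A and 38.1, 35.9 and 34.3 with siRNA B. Only the *Zfp598* siRNA A and *Fmr1* siRNA A libraries were clear of all 6 of these.

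The *Sesn1* changes were 0.53 ± 0.08 for *Zfp598* siRNA A (adjusted p = 0.000186), 0.27 ± 0.08 for *Zfp598* siRNA B (adjusted p = 0.0103), -0.39 ± 0.08 for *Fmr1* siRNA A (adjusted p = 0.000747) and 0.20 ± 0.08 for *Fmr1* siRNA B (adjusted p = 0.0754). Scramble siRNA B was lower than A by 0.27 ± 0.09 (adjusted p = 0.0312), and *Fmr1* siRNA B was higher than A by 0.59 ± 0.09 (adjusted p = 5.34e-05). *Zfp598* siRNA B was not called against Scramble siRNA A alone (0.14, adjusted p = 0.265) or without *Zfp598* B3 (0.23, adjusted p = 0.0693), whereas *Zfp598* siRNA A was called against each. Without both *Zfp598* A2 and A3 the *Zfp598* siRNA A value was 0.44 and the difference between the *Zfp598* siRNAs was -0.16. With all libraries that difference was -0.26 (adjusted p = 0.0291), a call lost without *Zfp598* A2, A3, B1 or B2. *Sesn1* overlaps *Cep57l1* on the opposite strand.

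*Zmat3* encodes an RNA-binding zinc finger protein and had the match to the consensus without a mismatch. It was at 129 to 173 CPM and passed against both Scramble siRNAs with no KD siRNA, with changes between -0.13 and 0.00. It was called between the Scramble siRNAs (-0.23 ± 0.08, adjusted p = 0.0308), a call lost in 5 of 18 fits without 1 library, and with *Fmr1* siRNA A against Scramble siRNA A alone (-0.24, adjusted p = 0.0219). *Tigar*, which lowers glycolytic flux, was at 16.8 to 28.1 CPM and passed in no comparison.

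**Figure D4:**
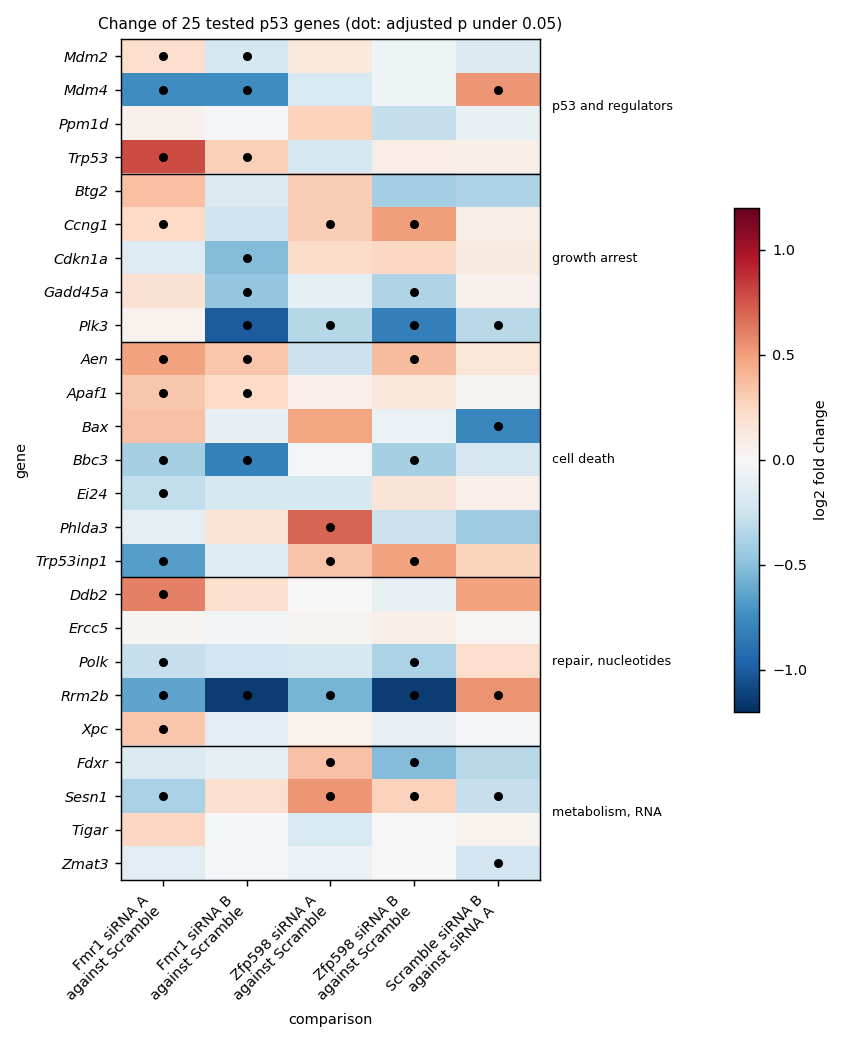
Log2 fold change of the 25 tested p53 genes with each KD siRNA against the 6 Scramble libraries, and of Scramble siRNA B against siRNA A (colour scale from -1.2 to 1.2; dots mark an adjusted p under 0.05). *Rrm2b* is blue with a dot in all 4 KD columns and red with a dot between the Scramble siRNAs, and no role group has a single colour in every column.

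The 7 genes too low to test included all 3 death receptors of the list: *Fas*, *Tnfrsf10b*, which encodes the TRAIL receptor, and *Eda2r*. *Eda2r* had 21 counts in *Fmr1* B1 and 0 in each of the other 17 libraries. There 0 counts allow up to 3 counts, which is 0.195 to 0.391 CPM when scaled by total counts alone. These limits leave out the TMM factors, so they are not on the scale of the other levels given here. *Tnfrsf10b* had 19 counts in *Fmr1* B1 and at most 9 elsewhere, and *Plk2*, a polo-like kinase, 20 and at most 3. *Pmaip1*, which encodes the BH3-only protein NOXA, had 4 counts there and at most 2 elsewhere. The same library held 110 counts of *Nanog*, 102 of *Zfp42* and 366 of *Tfcp2l1*, against at most 8, 1 and 35 in any other. The part of this RNA in the 4 counts was not tested.

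*Fas* had 0 to 18 counts, most in *Fmr1* A3, and *Perp*, a membrane protein of p53-dependent death, 0 to 12, most in *Fmr1* B2. *Dram1*, an autophagy regulator, had 0 to 7. In an edgeR fit without the filter on low counts, *Fas* was called higher with *Fmr1* siRNA A (adjusted p = 0.0177), *Plk2* and *Eda2r* higher with *Fmr1* siRNA B (adjusted p = 0.01 and 0.000904), and *Plk2*, *Eda2r* and *Tnfrsf10b* higher with *Fmr1* siRNA B than A (adjusted p = 0.00457, 0.0182 and 0.0328). *Fmr1* B1 held the most counts of *Plk2*, *Eda2r* and *Tnfrsf10b*, as given above. DESeq2 called *Fas* across the 6 siRNAs (adjusted p = 0.0185) and none of the 7 in any pairwise comparison, where most were given no adjusted p. The other 3 genes, *Pmaip1*, *Perp* and *Dram1*, were called in neither.

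Other parts of the pathway were read from lists of further genes. Of 28 more p53 targets, 23 were tested. In pooled *Fmr1* KD 2 were higher (*Ptpn14*, a phosphatase of the Hippo pathway, and *Inka2*) and 3 lower, beside 6.54% of all genes called, with a median log2 change of -0.05. *Ptpn14* was up by 2.11 ± 0.39 (adjusted p = 0.0028) and *Gdf15*, a secreted stress cytokine, down by 0.96 ± 0.25 (adjusted p = 0.0224). In pooled *Zfp598* KD edgeR called none of the 23, with 5 at an unadjusted p under 0.05 and 1 called by DESeq2, beside 1.96% of all genes called. By siRNA, 4 were higher and 9 lower with *Fmr1* siRNA A (29.3% of all genes called), 4 and 6 with *Fmr1* siRNA B (20.4%), 3 and 4 with *Zfp598* siRNA A (18.1%) and 5 and 6 with *Zfp598* siRNA B (29.9%).

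*Gdf15* was at -0.99 ± 0.17 with *Fmr1* siRNA A, -0.89 ± 0.17 with *Fmr1* siRNA B and -1.26 ± 0.18 with *Zfp598* siRNA B, all called, and at -0.05 ± 0.17 with *Zfp598* siRNA A. It is also a target of the stress factor ATF4, and of 10 ATF4 stress genes all 10 were lower with *Fmr1* siRNA B (median -0.76), when 10.3% of all genes were, and 7 with *Zfp598* siRNA B (16.1%). With each siRNA A 4 were lower and 1 higher (all genes 15.5% lower and 13.7% higher for *Fmr1*, 7.23% and 10.9% for *Zfp598*), and the higher one with *Fmr1* siRNA A was *Atf3*, at 1.27 ± 0.09 (adjusted p = 2.51e-09). Of 16 tested genes that act upstream of p53, such as the checkpoint kinases, 1 was lower in pooled *Fmr1* KD, *Atr*, by 0.44 ± 0.12 (adjusted p = 0.0307), and edgeR called none in pooled *Zfp598* KD, with 2 at an unadjusted p under 0.05 and 1 called by DESeq2. Of these 16, 3 were called with *Fmr1* siRNA A (29.3% of all genes) and 3 with *Fmr1* siRNA B (20.4%), all lower, while 3 were higher and 3 lower with *Zfp598* siRNA A (18.1%) and 2 and 3 with *Zfp598* siRNA B (29.9%). *Chek2*, a checkpoint kinase, was lower with *Zfp598* siRNA A (-0.51 ± 0.12, adjusted p = 0.00823) and B (-0.41 ± 0.12, adjusted p = 0.0116), while Scramble siRNA B exceeded Scramble siRNA A by 0.78 ± 0.13. *Cdkn2a*, whose product ARF blocks MDM2, was at 0.94 ± 0.21 with *Zfp598* siRNA A (adjusted p = 0.00575) and at -0.05 without *Zfp598* A2 and A3. Without these libraries the *Chek2* value for *Zfp598* siRNA A was -0.55.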

How the data were processed

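RNA-seq was performed on 18 N2A libraries, 3 for each of 6 siRNAs, which were grouped by the siRNA named in the labels. The authors trimmed reads with Trim Galore, aligned them to GRCm39 with STAR and deposited whole-number counts per gene from featureCounts, not normalized and not pooled. The annotation release and the strand setting are not given in the sources used here.

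Symbols and coordinates were taken from GENCODE M39 on GRCm39. R 4.3.3, edgeR 4.0.16 and limma 3.58.1 were used. Low genes were removed by filterByExpr, grouped by condition, with its default minimum of 10 counts and of 15 in total. TMM-normalized counts were fitted with glmQLFit and tested with glmQLFTest, once with the 3 conditions and once with the 6 siRNAs as groups, and p-values were adjusted over all 17901 genes. In the second model each KD siRNA was compared with the mean of both Scramble siRNAs. The fits were tested on simulated counts with the same dispersion for all genes and no differences between siRNAs of a condition. That test does not cover the differences between siRNAs seen here. Alternatives were DESeq2 1.42.0, another scaling, no filter, a replicate block, a term for the siRNA letter, summed counts, single Scramble siRNAs and leaving out each library in turn. A covariate for the share of the most counted feature and the omission of *Zfp598* A2 and A3 were added after seeing the data.

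Total counts were 7674724 to 15414590 per library. Counts carry no molecular identifiers, so limits at 0 counts cover counting error only. The p53 genes and the other gene lists were chosen with earlier results of these data known. Values in every library are given for *Cdkn1a*, *Mdm2*, *Trp53* and the called genes with over 1.5-fold change, ranked by the F test, to a total of 12. The lists of fibroblast and leukocyte markers (8 genes each) had summed levels of 6.46 to 19.1 and 1.17 to 3.36 CPM. Wald and likelihood ratio tests were used in DESeq2. No pair of libraries of an siRNA was close to sampling noise (chi-square per degree of freedom at least 2.78). Some marker genes are not reported here.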

Additional observations from a re-analysis of the deposited data

Results flagged for a closer look

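In 93 sets of 6 libraries (a p53 gene in a condition), a single library stood apart from the other 5 by Dixon's criterion in 8. Chance flags about 1 in 20 groups of normally distributed values. That rate does not apply to sets of mostly 0 counts, where the only library with any counts is always flagged. *Trp53* was highest in Scramble B3 at 55.9 CPM, next to 46.7 in the nearest library. The other 7 were genes with few counts: *Plk2* in Scramble A2 (0.199 CPM, 3 counts) and *Fmr1* B1 (1.35 CPM), *Pmaip1* in Scramble A3 (0.142 CPM, 2 counts) and *Fmr1* B1 (0.2698 CPM), *Perp* in *Fmr1* B2 (0.840 CPM), and *Tnfrsf10b* (1.28 CPM) and *Eda2r* (1.42 CPM) in *Fmr1* B1. Of these 8, 4 were thus in *Fmr1* B1, the library with stem cell marker RNA. The part of that RNA in these values was not tested.

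The siRNAs of a target differed from each other for 11 of the 25 tested genes for *Fmr1*, beside 24.3% of all genes, and for 11 for *Zfp598*, beside 35.3% (a direct test of siRNA B against siRNA A, adjusted p under 0.05 in edgeR). For *Fmr1*, siRNA B was higher than siRNA A for *Sesn1* (log2 difference 0.59) and *Trp53inp1* (0.51). It was lower for *Plk3* (-1.04), *Gadd45a* (-0.66), *Btg2* (-0.53), *Rrm2b* (-0.50), *Trp53* (-0.50), *Ccng1* (-0.48), *Xpc* (-0.47), *Mdm2* (-0.43) and *Cdkn1a* (-0.36). For *Zfp598*, siRNA B was higher for *Aen* (0.64), *Ei24* (0.35) and *Trp53* (0.31). It was lower for *Phlda3* (-0.96), *Fdxr* (-0.88), *Btg2* (-0.71), *Rrm2b* (-0.58), *Ppm1d* (-0.56), *Bax* (-0.55), *Plk3* (-0.48) and *Sesn1* (-0.26). *Trp53* and *Sesn1* differed in opposite directions for the 2 targets, a contrast that was not tested. The knockdown of *Fmr1* itself also differed, by 0.55 ± 0.12 (adjusted p = 0.00227).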

How the results depend on the processing

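Counts of p53 genes called moved by more than 1.5 times under some settings, as follows. For pooled *Fmr1* KD (5 called) the count was 8 with DESeq2 and with the feature share as a covariate, 9 with the siRNA letter as a term, 11 from the mean of both siRNA effects in the 6-group model and 0 with counts summed per siRNA. For pooled *Zfp598* KD (1 called) it was 3 with DESeq2, 4 with the letter term, with the covariate and without *Zfp598* A2 and A3, 6 from the mean of both effects and 0 with summed counts. Summing leaves 2 samples per condition. For *Zfp598* siRNA A (7 called) it was 4 against Scramble siRNA A alone. For *Zfp598* siRNA B against A (11 called) it was 7 with the covariate. Counts without *Zfp598* A2 and A3 are not given for these comparisons, because only *Zfp598* A1 was then left for siRNA A. Requiring over 2-fold left 1 gene each for *Fmr1* siRNA B, *Zfp598* siRNA B and *Fmr1* siRNA B against A, and 0 in the other 6 pairwise comparisons. With each library omitted in turn the counts were 3 to 6 for pooled *Fmr1* KD, 0 to 2 for pooled *Zfp598* KD, 9 to 15 and 7 to 12 for *Fmr1* siRNAs A and B, 2 to 10 and 7 to 12 for *Zfp598* siRNAs A and B, 2 to 9, 9 to 13 and 6 to 13 for siRNA B against A of Scramble, *Fmr1* and *Zfp598*, and 20 to 23 for the F test. The lowest of these came without *Fmr1* A2 (3), *Zfp598* B3 (0), *Fmr1* A1 (9), *Zfp598* A2 (2), Scramble A1 (2) and *Zfp598* B1 (6), and the count was 3 without Scramble A3, 7 without *Zfp598* A2 or B2 in the comparison of *Zfp598* siRNAs, and 2 without *Zfp598* A3 in pooled *Zfp598* KD. The cause was not tested.

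Of 2337 refitted values for 92 single results (a gene in a comparison), 2104 kept their side of the threshold, 220 lost a call and 10 gained one. The 2104 include changes of sign where neither fit gave a call. *Mdm2* in pooled *Fmr1* KD, for example, ranged from -0.04 to 0.07. The 3 values that changed sign for a called result were *Fdxr* with *Zfp598* siRNA A (-0.0496 without *Zfp598* A2 and A3) and *Bax* between the *Zfp598* siRNAs (0.0232 with the covariate and 0.0938 without these libraries). Replicate numbers did not pair the libraries (median correlation 0.0474 over 45 same-numbered pairs, lowest -0.399). With a replicate block the counts were 5 and 1 for pooled *Fmr1* and *Zfp598* KD, 14, 11, 7 and 10 for the 4 KD siRNAs, 6, 11 and 11 between siRNAs and 22 for the F test. The 7 genes at 21 counts or fewer were tested only in fits without the filter on low counts.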
